A study of Homo sapiens with 9 samples.

Results

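The genes described here are 44 DNA repair genes: those that sense, join or recombine broken DNA, those that cut out damaged bases or bulky lesions, and those that deal with crosslinks between the strands. They were chosen by name as genes of these pathways and grouped by role, and 42 of the 44 were measured among 11963 genes in all. BRCA2 and FANCA were not analysed here. Expression was measured on 9 Affymetrix human genome arrays with total RNA of MDA-MB-231 cells, a widely used line of human breast carcinoma. The sensitive cells grew with 1 µM verapamil alone, a blocker of calcium channels and of the drug efflux pump P-glycoprotein. The docetaxel-resistant line grew with 1 µM verapamil plus 2 nM docetaxel. The paclitaxel-resistant one grew with 1 µM verapamil plus 7 nM paclitaxel. Docetaxel and paclitaxel are taxanes, drugs that lock microtubules in their assembled form. Each group had 3 arrays, from 3 passages of 1 line, so p-values measure the spread among passages and not among separately selected lines. The sample descriptions name verapamil in all groups, while the treatment protocol names it for the sensitive cells alone, so verapamil may also differ between the groups. The taxane in the medium and the selected line change together in each comparison with sensitive cells. The comparisons ask which repair transcripts differ between each resistant line and the sensitive cells, and between the resistant lines.

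A broken chromosome can be closed by end joining, in which the Ku dimer of XRCC5 and XRCC6 holds the ends, the kinase PRKDC docks on Ku, and a ligase and gap-filling polymerases finish the joint. It can also be copied from the sister chromatid by homologous recombination, the route of BRCA1, and TP53BP1 is known for shielding ends from the resection that starts that route. Base excision repair replaces small lesions with PARP1 and PARP2 as nick sensors, nucleotide excision repair removes bulky ones with ERCC1 in its incision nuclease, and the Fanconi proteins unhook crosslinks. Taxanes act on the spindle rather than on DNA.

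Of the 42 measured genes, 14 were called in at least 1 comparison and 28 in none. A gene was called when limma's adjusted p (Benjamini-Hochberg over all 11963 genes) was below 0.05, and differences are on the log2 scale of normalized intensity with an offset of 16, which understates changes of dim probe sets. Against sensitive cells, 10 of 42 differed in the docetaxel-resistant line (8 higher, 2 lower, 23.8%), where 21.0% of all genes did (10.8% higher, 10.2% lower). In the paclitaxel-resistant line 11 of 42 differed (7 higher, 4 lower, 26.2%), where 21.6% of all genes did (10.8% higher, 10.7% lower). The 3 arrays of each group lay fully apart for 17 of the 42 in the docetaxel comparison, against 36.8% of all genes, and for 16 in the paclitaxel comparison, against 34.8%. In bulk RNA, fewer cells with a transcript and less transcript per cell cannot be told apart. As a whole the repair genes were therefore called about as often as any gene on the array. Their median difference was 0.10 in the docetaxel comparison, where that of all genes was -0.05, and 0.06 in the paclitaxel comparison, where it was -0.02. Of the 6 end-joining genes, 4 were higher in each resistant line, with a median of 0.66 and 0.82, though the docetaxel count falls to 1 or 2 when any of 4 single arrays is left out. Of 4 further end-joining genes outside the 44, 0 were higher and 1 lower in the docetaxel line (median -0.19), and 0 were called in the paclitaxel line (median 0.04). Both comparisons use the same 3 sensitive arrays, so their results are given side by side and not as support for each other.

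**Figure D1:**
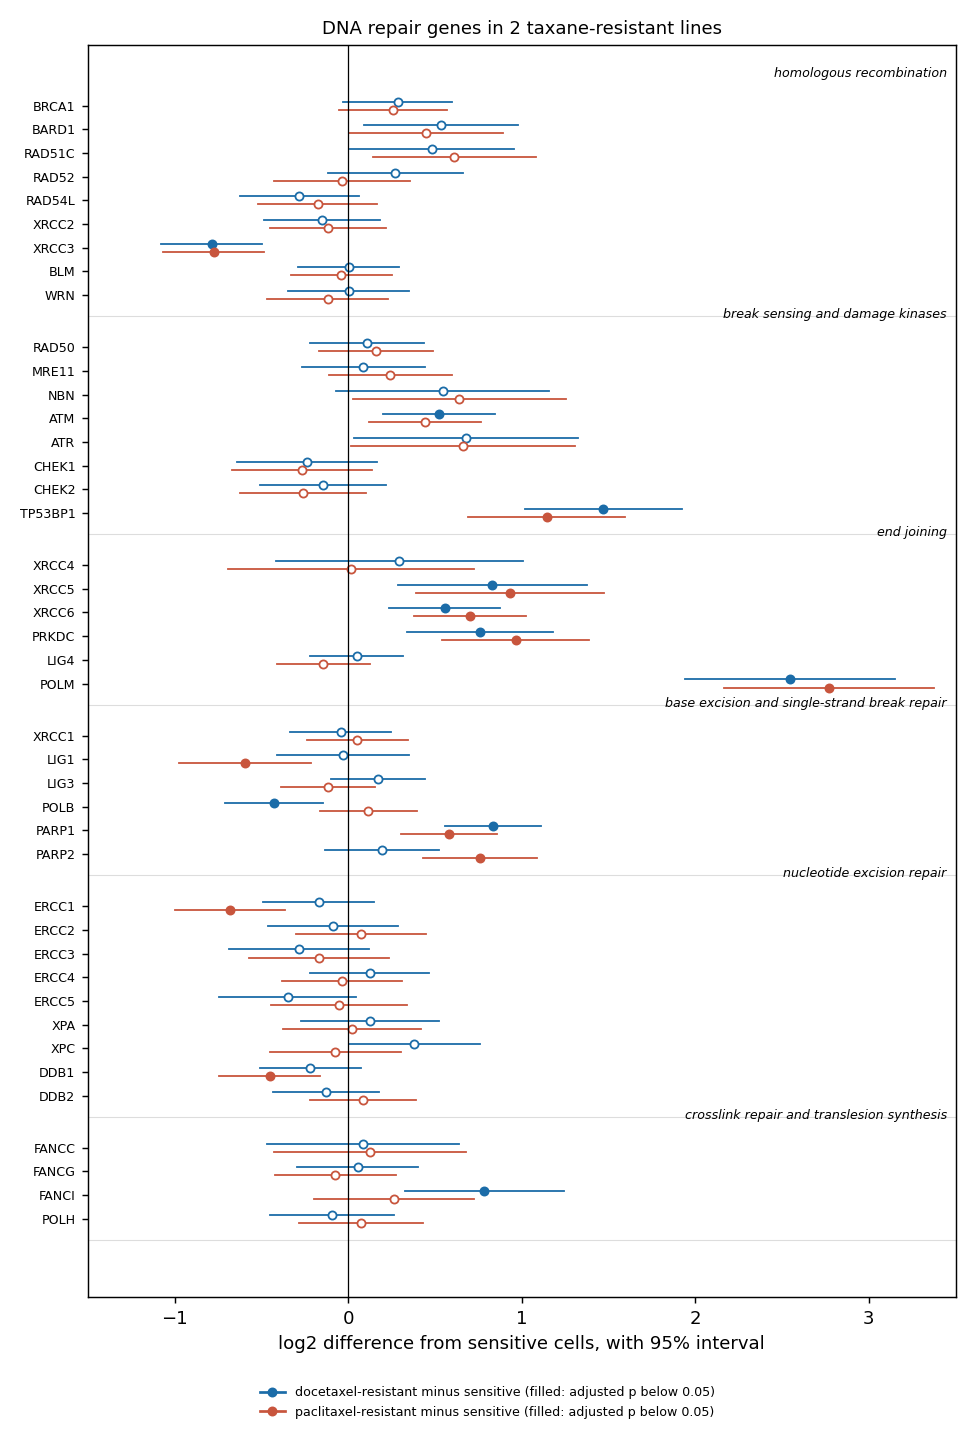
Log2 difference from sensitive cells (x axis) with its 95% interval for each of the 42 measured repair genes (rows, grouped by role), in the docetaxel-resistant line (blue) and the paclitaxel-resistant line (red); filled points passed the adjusted p. POLM lies farthest to the right, at 2.54 and 2.77, XRCC3 farthest to the left, at -0.79 and -0.78, and most intervals cross 0.

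The stretches before the start are printed for the genes called in both resistant lines. XRCC5 and PRKDC, which were called in both as well, had no entry in the promoter table. Each stretch holds the 250 bases before the gene's start from RefSeq, build GRCh38.p14, 5′ to 3′ on the strand of the gene, with GC boxes in capitals. A GC box is the letters GGGCGG or, on the other strand, CCGCCC, the sequence that factors of the Sp family bind. In POLM the boxes next to the start overlap each other.
POLM, chr7:44082531-44082780, minus strand: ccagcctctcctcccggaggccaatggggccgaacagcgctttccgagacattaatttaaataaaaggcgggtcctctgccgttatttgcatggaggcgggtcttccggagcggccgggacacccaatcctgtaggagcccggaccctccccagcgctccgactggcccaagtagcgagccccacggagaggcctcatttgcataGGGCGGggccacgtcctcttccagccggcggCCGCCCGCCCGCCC
XRCC6, chr22:41621045-41621294, plus strand: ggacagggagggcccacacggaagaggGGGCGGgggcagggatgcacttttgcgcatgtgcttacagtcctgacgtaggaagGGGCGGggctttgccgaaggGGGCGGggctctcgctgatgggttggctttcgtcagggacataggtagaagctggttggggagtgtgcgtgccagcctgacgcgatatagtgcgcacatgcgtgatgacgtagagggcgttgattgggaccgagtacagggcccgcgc
TP53BP1, chr15:43510641-43510890, minus strand: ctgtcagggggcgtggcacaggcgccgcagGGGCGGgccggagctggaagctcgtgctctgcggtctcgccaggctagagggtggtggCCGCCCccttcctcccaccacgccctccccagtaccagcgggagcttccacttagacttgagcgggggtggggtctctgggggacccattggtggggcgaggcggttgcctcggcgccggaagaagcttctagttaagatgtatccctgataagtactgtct
PARP1, chr1:226408094-226408343, minus strand: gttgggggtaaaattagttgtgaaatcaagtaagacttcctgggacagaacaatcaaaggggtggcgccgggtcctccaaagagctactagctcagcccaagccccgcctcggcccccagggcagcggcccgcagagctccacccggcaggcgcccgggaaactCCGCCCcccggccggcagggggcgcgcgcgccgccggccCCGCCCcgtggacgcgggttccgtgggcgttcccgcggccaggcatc
XRCC3, chr14:103715452-103715701, minus strand: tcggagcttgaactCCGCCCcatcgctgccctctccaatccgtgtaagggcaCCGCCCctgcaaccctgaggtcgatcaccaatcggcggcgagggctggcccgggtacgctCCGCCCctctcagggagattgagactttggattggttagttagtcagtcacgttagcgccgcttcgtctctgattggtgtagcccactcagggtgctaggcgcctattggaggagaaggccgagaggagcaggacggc
GC content was 66.0% in the POLM stretch, 63.6% in XRCC6, 66.4% in TP53BP1, 70.4% in PARP1 and 62.0% in XRCC3, and the median over all promoters was 58.0%. The POLM stretch held 4 GC boxes, those of XRCC6 and XRCC3 held 3 each, and those of TP53BP1 and PARP1 held 2 each. XRCC3, which fell, thus carried as many as XRCC6, which rose. A promoter entry was found for 36 of the 42 measured genes, and 27 of these (75.0%) held a GC box, against 42.3% of 27305 promoters. The 27305 include promoters of genes that were not measured on these arrays, so the sets compared are unlike. The ETS motif CCGGAAG was in 10 of the 36 (27.8%), against 8.82% of all. The CCAAT box was in 13 (36.1%, against 33.0%). Few held the cyclic AMP response element TGACGTCA (2, or 5.56%, against 1.77%) and the E2F motifs TTTCGCGC or TTTGGCGC (1, or 2.78%, against 0.996%). The consensus of the factor NRF1 was in 0 of the 36 and in 1.13% of all promoters. Every motif was searched on both strands, and a match describes letters in this window.

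POLM, DNA polymerase mu, which fills gaps in the joints of end joining, had the largest difference of the 42 genes in each resistant line. The deposited intensities were 5.92, 11 and 30.7 in the sensitive arrays, 205, 198 and 130 in the docetaxel-resistant ones and 236, 166 and 165 in the paclitaxel-resistant ones. Every resistant array was thus far above every sensitive one, and the sensitive arrays differed among themselves in a range close to background. The group means were 15.9 ± 13.1, 178 ± 41.4 and 189 ± 40.4 (SD, n = 3 each). The log2 difference was 2.54 ± 0.28 (SE) in the docetaxel line, a 5.83-fold increase on the offset scale (adjusted p = 0.000102, limma). It was 2.77 ± 0.28 in the paclitaxel line, or 6.83-fold (adjusted p = 4.5e-05, limma). With an offset of 1 in place of 16 the differences were 3.53 and 3.78, and with 64 they were 1.52 and 1.69, so the size of the fold rests on the offset while the call does not. POLM was read by a single probe set, of the type whose probes match several transcripts.

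The 3 genes of the DNA-dependent protein kinase, which caps broken ends, also rose in each line. For XRCC6, the Ku70 subunit, the intensities were 1989, 1387 and 1316 in sensitive cells, 1990, 2472 and 2503 in the docetaxel line and 2705, 2262 and 2428 in the paclitaxel line. Sensitive replicate 1 all but reached docetaxel-resistant replicate 1, and the other resistant arrays were well above it. The differences were 0.56 ± 0.15 (adjusted p = 0.0192, limma) and 0.70 ± 0.15 (adjusted p = 0.00536, limma). XRCC5, the Ku80 subunit, read 932, 295 and 480 in sensitive cells, 849, 928 and 1163 in the docetaxel line and 986, 1059 and 986 in the paclitaxel line. Here sensitive replicate 1 lay at the level of the resistant arrays. It was above docetaxel-resistant replicates 1 and 2 as deposited, and below both after normalization. The differences were 0.83 ± 0.25 (adjusted p = 0.0346, limma) and 0.93 ± 0.25 (adjusted p = 0.0195, limma). PRKDC, the catalytic subunit, read 41, 29.3 and 53.4 in sensitive cells, 71.7, 71.8 and 142 in the docetaxel line and 105, 87.7 and 99.7 in the paclitaxel line. No resistant array overlapped the sensitive ones. The differences were 0.76 ± 0.19 (adjusted p = 0.0161, limma) and 0.96 ± 0.19 (adjusted p = 0.00422, limma).

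The ligase side of end joining was not called. LIG4, the DNA ligase of this pathway, differed by 0.05 (adjusted p = 0.83) and -0.14 (adjusted p = 0.476), and XRCC4, its partner, by 0.29 (adjusted p = 0.582) and 0.02 (adjusted p = 0.982), all by limma. XRCC4 varied widely within the resistant groups, from 13.1 to 49 in the docetaxel line and from 7.65 to 42.4 in the paclitaxel line. The number of end-joining genes called in the docetaxel line rests on single arrays: 4 became 1 without sensitive replicate 2, 2 without sensitive replicate 3, 2 without docetaxel-resistant replicate 2 and 1 without docetaxel-resistant replicate 3. Of all genes 15.7%, 16.9%, 16.5% and 13.7% were called in those refits, in the same order. POLM was the end-joining gene called in every such refit. In the paclitaxel line 3 or 4 were called whichever array was left out.

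TP53BP1, the end-protection protein 53BP1, was the second largest increase in both lines. Its intensities were 98.7, 38.9 and 54.8 in sensitive cells, 195, 217 and 250 in the docetaxel line and 192, 143 and 140 in the paclitaxel line. All resistant arrays were above all sensitive ones, and the docetaxel-resistant arrays above the paclitaxel-resistant ones. The differences were 1.47 ± 0.21 (adjusted p = 0.000521, limma) and 1.14 ± 0.21 (adjusted p = 0.00228, limma). A second TP53BP1 probe set differed by 0.16 (adjusted p = 0.565) and 0.35 (adjusted p = 0.164), so the probe sets of this gene disagree and the increase is a measurement of 1 of them.

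ATM, the kinase that answers to double-strand breaks, read 23.2, 20.1 and 22.1 in sensitive cells, 32.2, 45.5 and 53.1 in the docetaxel line and 48.7, 33.3 and 32.3 in the paclitaxel line. Every resistant array was above every sensitive one, in a range of low intensity. The difference passed in the docetaxel line (0.52 ± 0.15, adjusted p = 0.0266, limma) and was 0.44 in the paclitaxel line (adjusted p = 0.0529, limma). The probe set used is of a type whose probes may also match other sequences. The other ATM probe sets differed by -0.07 and -0.09 in the docetaxel comparison. Of the remaining break sensors none was called. ATR, the kinase of stalled forks, differed by 0.68 and 0.66 with sensitive intensities of at most 5.83 and resistant ones from 5.17 to 34.2. For NBN, the regulatory subunit of the MRE11 complex, the differences were 0.54 and 0.64, and docetaxel-resistant replicate 3 alone read 110. RAD50 and MRE11, the other subunits, lay between 0.09 and 0.24, and the checkpoint kinases CHEK1 and CHEK2 between -0.27 and -0.14. Without sensitive replicate 2 or 3, or docetaxel-resistant replicate 2 or 3, the ATM call was lost, with an adjusted p of up to 0.11.

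**Figure D2:**
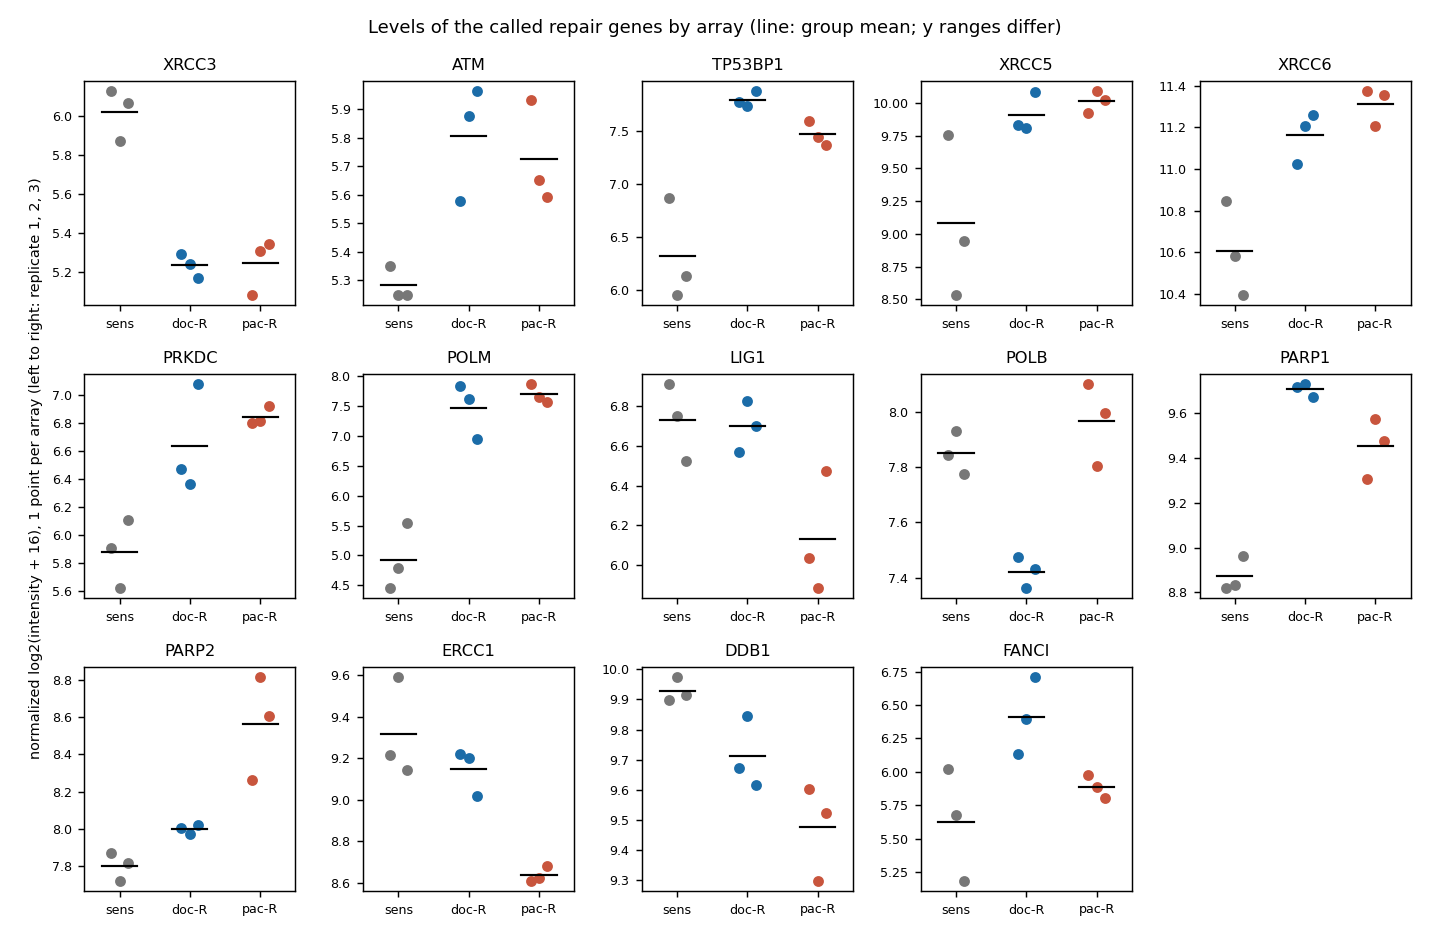
Normalized log2(intensity + 16) on each array (points; replicates 1 to 3 from left to right) with the group mean (line) for the 14 called repair genes, in sensitive (sens), docetaxel-resistant (doc-R) and paclitaxel-resistant (pac-R) cells; the y ranges differ between panels and do not start at 0. On this scale, POLM, TP53BP1, PARP1, XRCC3, XRCC5, XRCC6, PRKDC, ATM, PARP2 and DDB1 show resistant arrays apart from sensitive ones in both lines. POLB, ERCC1, LIG1 and FANCI show this in 1 line. By the adjusted p, POLB, PARP2, ERCC1, LIG1, DDB1, ATM and FANCI passed in 1 line.

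Homologous recombination held 1 called gene of 9 in each comparison (11.1%), where 21.0% and 21.6% of all genes were called. XRCC3, a gene of homologous recombination, was lower in both lines. It read 50.5, 36.2 and 51.5 in sensitive cells, 23.8, 22.5 and 21.2 in the docetaxel line and 18.4, 22.8 and 24.8 in the paclitaxel line. The groups did not overlap. XRCC3 fell by 0.79 ± 0.13 in the docetaxel line (adjusted p = 0.00163, limma) and by 0.78 ± 0.13 in the paclitaxel line (adjusted p = 0.00166, limma), from 1 probe set, again of the type that matches several transcripts.

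BRCA1, the tumour suppressor that promotes end resection, read 21.8, 17.6 and 28.6 in sensitive cells, 30, 33.8 and 37.8 in the docetaxel line and 40.4, 28.7 and 26.7 in the paclitaxel line. The docetaxel-resistant arrays were above the sensitive ones and the paclitaxel-resistant ones overlapped them. Neither difference passed: 0.28 (95% interval -0.03 to 0.60, adjusted p = 0.194, limma) and 0.26 (95% interval -0.06 to 0.57, adjusted p = 0.249, limma). A second BRCA1 probe set gave 0.00 and -0.33. BARD1, the partner of BRCA1 in its ubiquitin ligase, differed by 0.53 and 0.45, and RAD51C, the partner of XRCC3 in a recombination complex, by 0.48 and 0.61, all short of the threshold. RAD52, RAD54L, XRCC2 and the helicases BLM and WRN lay between -0.28 and 0.27.

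In base excision and single-strand break repair PARP1 rose in both lines and PARP2 in the paclitaxel line. PARP1, the main poly(ADP-ribose) polymerase, read 476, 371 and 485 in sensitive cells, 782, 884 and 875 in the docetaxel line and 650, 717 and 669 in the paclitaxel line. The 3 groups were fully separate, with the docetaxel line highest. The differences were 0.83 ± 0.13 (adjusted p = 0.000829, limma) and 0.58 ± 0.13 (adjusted p = 0.00641, limma). PARP2, the second such enzyme, read 231, 157 and 219 in sensitive cells, 229, 255 and 280 in the docetaxel line and 315, 407 and 353 in the paclitaxel line. The lowest docetaxel-resistant array lay just under the highest sensitive one as deposited, and the paclitaxel-resistant ones were above both groups. PARP2 rose in the paclitaxel line by 0.76 ± 0.15 (adjusted p = 0.00391, limma) and differed by 0.20 in the docetaxel line (adjusted p = 0.405, limma). All 3 PARP2 probe sets were alike in the paclitaxel comparison, at 0.70, 0.82 and 0.76. All 3 are of the types whose probes may match several transcripts or other sequences.

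POLB and LIG1, the gap-filling polymerase and a ligase of the same route, were each lower in 1 line. POLB, DNA polymerase beta, read 226, 185 and 212 in sensitive cells, 157, 162 and 184 in the docetaxel line and 281, 187 and 226 in the paclitaxel line. The docetaxel-resistant arrays were lowest, with their highest array just under the lowest sensitive one. POLB fell by 0.43 ± 0.13 there (adjusted p = 0.0346, limma), and in the paclitaxel line the difference was 0.12 (adjusted p = 0.596, limma). The POLB call was lost without any 1 of the sensitive or docetaxel-resistant arrays (adjusted p up to 0.111). LIG1, the replicative DNA ligase, read 103, 72.9 and 78.4 in sensitive cells, 77.6, 106 and 106 in the docetaxel line and 53.8, 41.4 and 71.2 in the paclitaxel line. The paclitaxel-resistant arrays were the lowest 3. LIG1 fell by 0.60 ± 0.17 in that line (adjusted p = 0.0291, limma) and differed by -0.03 in the docetaxel line. Without sensitive replicate 1 or 2, or paclitaxel-resistant replicate 1 or 2, the LIG1 call was lost, with an adjusted p of up to 0.113. XRCC1, the scaffold of single-strand break repair, and LIG3, its ligase, lay between -0.12 and 0.17 and were not called.

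Nucleotide excision repair held 2 called genes of 9, both lower in the paclitaxel line (22.2%, against 21.6% of all genes). In the docetaxel line 0 of the 9 were called, where 21.0% of all genes were. ERCC1, which with ERCC4 forms the nuclease that cuts 5′ of a lesion, read 638, 643 and 555 in sensitive cells, 548, 611 and 557 in the docetaxel line and 407, 353 and 373 in the paclitaxel line. The paclitaxel-resistant arrays were well below all others, and the docetaxel-resistant ones mixed with the sensitive ones. ERCC1 fell by 0.68 ± 0.15 in the paclitaxel line (adjusted p = 0.00603, limma), and the docetaxel difference was -0.17 (adjusted p = 0.46, limma). A second ERCC1 probe set gave -0.64 in the paclitaxel line (adjusted p = 0.0123, limma) and -0.46 in the docetaxel line (adjusted p = 0.0612, limma). ERCC4 itself differed by 0.12 in the docetaxel and -0.04 in the paclitaxel line.

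DDB1, the adaptor of the ubiquitin ligase that recognizes ultraviolet damage, read 1033, 873 and 931 in sensitive cells, 759, 955 and 841 in the docetaxel line and 810, 586 and 691 in the paclitaxel line. The paclitaxel-resistant arrays were below the sensitive ones. DDB1 fell by 0.45 ± 0.13 in the paclitaxel line (adjusted p = 0.0298, limma), and the docetaxel difference was -0.22 (adjusted p = 0.29, limma). Leaving out any 1 sensitive array, or paclitaxel-resistant replicate 2 or 3, ended the DDB1 call, with an adjusted p of up to 0.111. XPC, the lesion sensor of this route, read 66.8, 61.6 and 85.2 in sensitive cells, 102, 119 and 123 in the docetaxel line and 112, 53.7 and 62.9 in the paclitaxel line. The docetaxel-resistant arrays were all above the sensitive ones, but after normalization the difference of 0.38 had a 95% interval from 0.00 to 0.76 and did not pass (adjusted p = 0.15, limma). In the paclitaxel line the difference was -0.08 (adjusted p = 0.824, limma). DDB2, XPA, ERCC2, ERCC3 and ERCC5, which recognize, open or cut around lesions, lay between -0.35 and 0.13 and none was called.

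Of the crosslink and translesion genes 1 of 4 was called in the docetaxel line (25%, against 21.0% of all genes). In the paclitaxel line 0 of the 4 were called, where 21.6% of all genes were. FANCI, which with FANCD2 forms the clamp that is ubiquitinated in crosslink repair, read 45.7, 30.6 and 20.6 in sensitive cells, 54, 73.6 and 107 in the docetaxel line and 50.8, 41.6 and 39.6 in the paclitaxel line. The docetaxel-resistant arrays were above the sensitive ones, and the paclitaxel-resistant ones overlapped them. FANCI rose by 0.78 ± 0.21 in the docetaxel line (adjusted p = 0.0205, limma) and differed by 0.26 in the paclitaxel line (adjusted p = 0.442, limma). A second FANCI probe set gave 1.15 (adjusted p = 0.00489) and 0.87 (adjusted p = 0.0209), and with that one the paclitaxel difference passes as well. Without sensitive replicate 3, or docetaxel-resistant replicate 2 or 3, the docetaxel call was lost, with an adjusted p of up to 0.0901. FANCC and FANCG, of the Fanconi core complex, and the bypass polymerase POLH lay between -0.09 and 0.12.

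**Figure D3:**
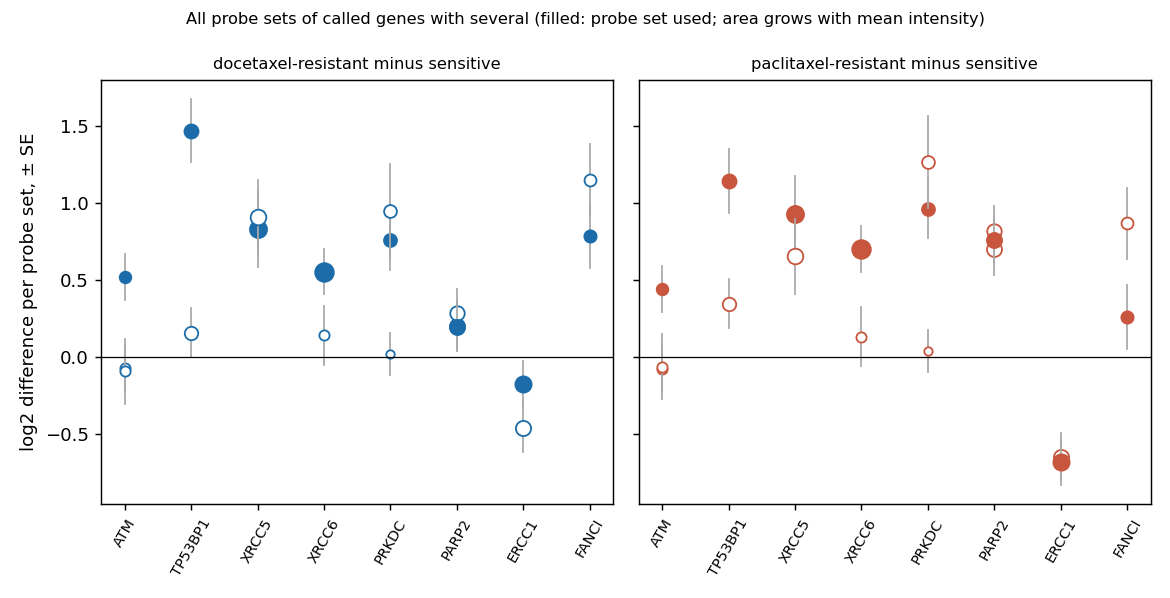
Log2 difference ± SE (y axis) of every probe set of the called repair genes that have more than 1 probe set (x axis), against sensitive cells; filled points are the probe sets used in the report, open points the others, and the area grows with mean intensity. The probe sets of PARP2 lie close together, those of XRCC5 and FANCI are all above 0, and those of ERCC1 are below 0. In the docetaxel comparison the ERCC1 probe sets lie at -0.17 and -0.46. 1 probe set each of XRCC6 and PRKDC and the other ATM probe sets lie near 0, and the second of TP53BP1 lies at 0.16 and 0.35.

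Several probe sets were available for 18 of the 42 genes. For XRCC5 the second probe set gave 0.91 (adjusted p = 0.0214) and 0.65 (adjusted p = 0.0841). A dim XRCC6 probe set, with a mean intensity of 15, gave 0.14 and 0.13, and for PRKDC the others gave 0.95 and 1.27, and 0.02 and 0.04. Of the 42 genes 19 lay below the median level of all genes and 4 had a mean intensity under 16, where a difference is hard to see on these arrays.

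Between the resistant lines none of the 42 genes was called, where 1.96% of all genes were (0.978% higher, 0.986% lower). At an unadjusted p under 0.05 there were 7 of 42, and 1564 of 11963 over all genes (limma). The differences, paclitaxel- minus docetaxel-resistant, ran from -0.57 to 0.56. In 12 of 42 the arrays of the lines did not overlap, where this held for 20.4% of all genes. The genes that passed in 1 line and not in the other are therefore not shown to differ between the lines. The nearest to the threshold were POLB, 0.54 higher in the paclitaxel line (adjusted p = 0.0575, limma), and PARP2, 0.56 higher (adjusted p = 0.086, limma). ERCC1 was lower there by -0.51 (adjusted p = 0.107) and LIG1 by -0.57 (adjusted p = 0.137). For POLM the difference was 0.23 with a wide interval (adjusted p = 0.838, limma). POLB passed with an offset of 64, with genes below the median level left out, and with probe sets averaged, and PARP2 passed without paclitaxel-resistant replicate 1.

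**Figure D4:**
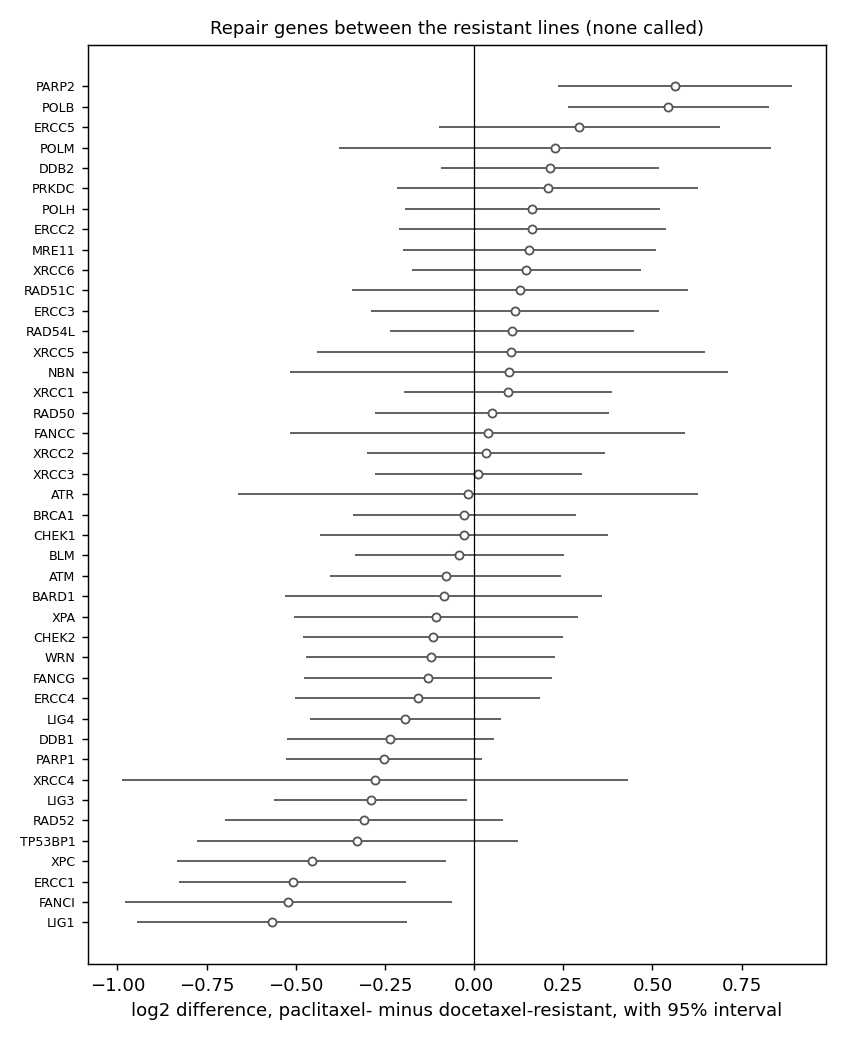
Log2 difference between the paclitaxel- and the docetaxel-resistant line (x axis) with its 95% interval for the 42 repair genes, ordered by the difference. PARP2 and POLB lie highest, at 0.56 and 0.54, LIG1 lowest, at -0.57, and no gene passed the adjusted p although the intervals of 7 genes leave out 0.

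Other genes of the same pathways were called at the rate of all genes: of 79 measured, 8 were higher and 10 lower in the docetaxel line (22.8%), and 5 higher and 10 lower in the paclitaxel line (19.0%). Between the lines limma called 0 of 79, with 10 at an unadjusted p under 0.05. EXO1, a nuclease of end resection and mismatch repair, read 62.4, 56.8 and 25.1 in sensitive cells, 111, 134 and 192 in the docetaxel line and 133, 141 and 119 in the paclitaxel line, with no overlap. It rose by 1.15 ± 0.26 (adjusted p = 0.00801, limma) and by 1.17 (adjusted p = 0.0071, limma). FANCL, the ubiquitin ligase of the Fanconi core, rose by 1.08 and 0.88. POLL, the polymerase most like POLM in its role at joints, was lower: it fell by 0.65 ± 0.17 in the docetaxel line (adjusted p = 0.0189, limma) and differed by -0.29 in the paclitaxel line (adjusted p = 0.276, limma). Without sensitive replicate 2 or docetaxel-resistant replicate 2 or 3 the POLL call was lost, with an adjusted p of up to 0.0823. The docetaxel count of 18 among these other genes fell to 10 without sensitive replicate 3 or without docetaxel-resistant replicate 2. It fell to 9 without docetaxel-resistant replicate 3. Of all genes 16.9%, 16.5% and 13.7% were called in these refits.

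Of 16 further base excision genes, 1 was higher and 4 lower in the docetaxel line (31.2%, against 21.0% of all genes), with a median of 0.01. In the paclitaxel line 1 was higher and 5 lower (37.5%, against 21.6% of all genes), with a median of -0.24. APEX2, an abasic-site nuclease, read 255, 172 and 230 in sensitive cells, 102, 118 and 103 in the docetaxel line and 108, 109 and 118 in the paclitaxel line, with no overlap. It fell by 1.06 (adjusted p = 0.000349, limma) and by 0.89 (adjusted p = 0.00101, limma). TDP1, which removes trapped topoisomerase from DNA ends, read 313, 280 and 280, then 151, 171 and 186, then 143, 143 and 140 in the same order, and fell by 0.87 and 0.97. SMUG1, a uracil glycosylase, was lower in both lines, by -0.74 ± 0.13 (adjusted p = 0.00265, limma) and -0.72 ± 0.13 (adjusted p = 0.00273, limma). UNG, the main uracil glycosylase, was called lower in the paclitaxel line (-0.80 ± 0.15, adjusted p = 0.00273, limma). FANCE, of the Fanconi core, fell by 0.66 and 0.90. MBD4, a glycosylase for mismatched thymine, rose by 0.94 and 0.98, while its second probe set gave -0.20 and -0.11. Of the transcription factor IIH subunits, GTF2H3 rose by 0.86 in the docetaxel line and CDK7 by 0.78 there (adjusted p = 0.0342, limma). CDK7 differed by 0.59 in the paclitaxel line (adjusted p = 0.0995, limma). GTF2H1 rose by 0.70 in the docetaxel line (adjusted p = 0.0421, limma) and by 0.75 in the paclitaxel line (adjusted p = 0.0305, limma). The break-response proteins UIMC1 and RIF1 differed in the paclitaxel line by 0.76 (adjusted p = 0.00547, limma) and -1.02 (adjusted p = 0.043, limma). The deposited RIF1 intensities overlapped, at 63.4, 71.8 and 184 in sensitive and 73.1, 21.4 and 47.7 in paclitaxel-resistant arrays. CDK7 lost its call without sensitive replicate 2 or 3 or docetaxel-resistant replicate 2 or 3 (adjusted p up to 0.138). GTF2H1 lost its docetaxel call without replicate 2 or 3 of any group (up to 0.15), and its paclitaxel call without sensitive replicate 2 or 3 or paclitaxel-resistant replicate 1 or 3 (up to 0.114). RIF1 lost its call without sensitive replicate 2 or 3, docetaxel-resistant replicate 1 or 2 or paclitaxel-resistant replicate 2 or 3 (up to 0.166).

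Many repair genes are known to rise in dividing cells. Of 20 proliferation genes 2 were higher and 1 lower in the docetaxel line (15%, against 21.0% of all genes), with a median of 0.02. In the paclitaxel line 1 was higher (5%, against 21.6% of all genes), with a median of 0.06. MKI67, the classical marker of dividing cells, differed by 0.00 and -0.05. MCM6, a subunit of the replicative helicase, rose by 0.75 in the docetaxel line and differed by 0.30 in the paclitaxel line. TOP2A, the topoisomerase of dividing cells, differed by 1.30 in the docetaxel line (adjusted p = 0.0588, limma) and rose by 1.54 in the paclitaxel line (adjusted p = 0.0274, limma). The TOP2A call was lost without sensitive replicate 2 or 3, or paclitaxel-resistant replicate 1 or 2 (adjusted p up to 0.109). Of 12 targets of the p53 response, 1 was higher and 4 lower in the docetaxel line (41.7%, median -0.18). In the paclitaxel line 0 were higher and 3 lower (25%, median -0.23). BAX, which opens mitochondria in apoptosis, fell by 0.69 and by 1.18, and GADD45A, a damage-induced gene, by 0.85 and 0.54. The p21 gene CDKN1A, a brake on the cell cycle, fell by 0.78 in the docetaxel line. Without sensitive replicate 3 or paclitaxel-resistant replicate 3 the paclitaxel call of GADD45A was lost, with an adjusted p of up to 0.116.

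The gene order on the chromosomes was taken from the RefSeq gene table, and up to 3 measured genes on either side of each called gene were read from the same fit. The genes named here were chosen after their values were seen. None of the 6 neighbours of POLM was called in either comparison; they lay between -0.34 and 0.04 in the docetaxel line and between -0.25 and 0.12 in the paclitaxel line. Next to XRCC3, ZFYVE21 fell by 0.82 and 1.05, and in all 2 and 3 of its 6 neighbours were lower. Of the 6 neighbours of TP53BP1, 2 were higher in the docetaxel line, and 2 were higher and 1 lower in the paclitaxel line. Among them PDIA3 was higher by 1.02 and 0.66 and TUBGCP4 by 0.53 and 0.52, and LCMT2 differed by -0.04 and -0.70. Next to PARP1, ACBD3 was higher by 1.54 and 1.27, and PSEN2 was lower by 0.79 in the paclitaxel line. Over all called repair genes, 5 of 60 neighbours were higher and 6 lower in the docetaxel line, 9 of them in the direction of the repair gene. In the paclitaxel line 7 of 64 were higher and 13 lower, 15 of them in that direction. Of all genes 10.8% were higher in each comparison, and 10.2% and 10.7% were lower.

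Of the markers of the labelled cells, the vimentin gene VIM and the keratin genes were bright in every group. The epithelial genes EPCAM, at 9.93 to 27.3, and CDH1, at 34.5 to 125, were dimmer. The leukocyte gene PTPRC was dim, while the haemoglobin gene HBB, of the same blood list, read 315 to 482. VIM fell by 0.74 and 0.60. Of 6 mesenchymal-type markers 2 were lower in each line (33.3%), and of 6 epithelial ones 1 was higher (16.7%). Of all genes 21.0% and 21.6% were called. MSN read 1682 to 1767 in sensitive and 972 to 1413 in resistant arrays, and KRT7 345 to 488 and 579 to 1051. The summed intensity of 5 luminal breast markers was 633.4 to 718.4 in sensitive, 782.2 to 906.2 in docetaxel-resistant and 882.8 to 908.4 in paclitaxel-resistant arrays, with no overlap with the sensitive ones. Of these FOXA1 alone was called, higher by 0.78 and 1.02, at low intensities of 3.88 to 8.99 in sensitive and 20.6 to 30.2 in resistant arrays. The summed level was mostly XBP1, at 498 to 582 in sensitive and 630 to 760 in resistant arrays. None of the markers of other cell types was listed at 0 on every array. The summed intensity of 5 blood markers, mostly HBB, was 400.8 to 503.4 in sensitive, 484.7 to 527.6 in docetaxel-resistant and 492.2 to 582.1 in paclitaxel-resistant arrays. That of 6 fibroblast markers was 224.6 to 240.4, 268.1 to 315.8 and 248.7 to 338.2. Among them PDGFRB read 25.5 to 55.9 in sensitive arrays and 79.4 to 129 in resistant ones. The summed intensity of 5 melanocytic markers was 190.9 to 219.2, 356.3 to 453.2 and 336.2 to 479.4. Of these MITF alone was called, with 53, 30.8 and 37.4 in sensitive arrays and 188 to 336 in resistant ones. As a measure of RNA integrity, the log2 signal of the 3′ minus the 5′ probes was taken for GAPDH and ACTB. For GAPDH it was 0.014 to 0.039 in sensitive, 0.007 to 0.13 in docetaxel-resistant and 0.094 to 0.201 in paclitaxel-resistant arrays. Every paclitaxel-resistant array was thus above every sensitive one for GAPDH. For ACTB the signal was -0.261 to -0.017, -0.15 to -0.108 and -0.125 to 0.172 in the same order of groups, and there the groups overlapped. The array medians ran from 33.7 in sensitive replicate 2 to 43.9 in docetaxel-resistant replicate 3, before normalization. The part of these values in the repair gene differences was not tested.

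The calls differed in how far they rested on single arrays and settings. POLM, TP53BP1, PARP1 and XRCC3 in both lines, and XRCC6, PRKDC, PARP2 and ERCC1 in the paclitaxel line, were called whichever 1 array was left out. In the docetaxel line XRCC6 lost its call without sensitive replicate 2 or 3 or docetaxel-resistant replicate 2 or 3 (adjusted p up to 0.074), and PRKDC without sensitive replicate 2 or docetaxel-resistant replicate 3 (up to 0.0586). XRCC5 lost it there without sensitive replicate 2 or 3, any docetaxel-resistant array, or paclitaxel-resistant replicate 2 or 3 (up to 0.117), and in the paclitaxel line without sensitive or paclitaxel-resistant replicate 2 or 3 (up to 0.068). The number of repair genes called in the docetaxel line fell from 10 to 6 without sensitive replicate 2, 5 without sensitive replicate 3, 5 without docetaxel-resistant replicate 2 and 4 without docetaxel-resistant replicate 3. The share of all genes called fell in the same refits, to 15.7%, 16.9%, 16.5% and 13.7%.

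**Figure D5:**
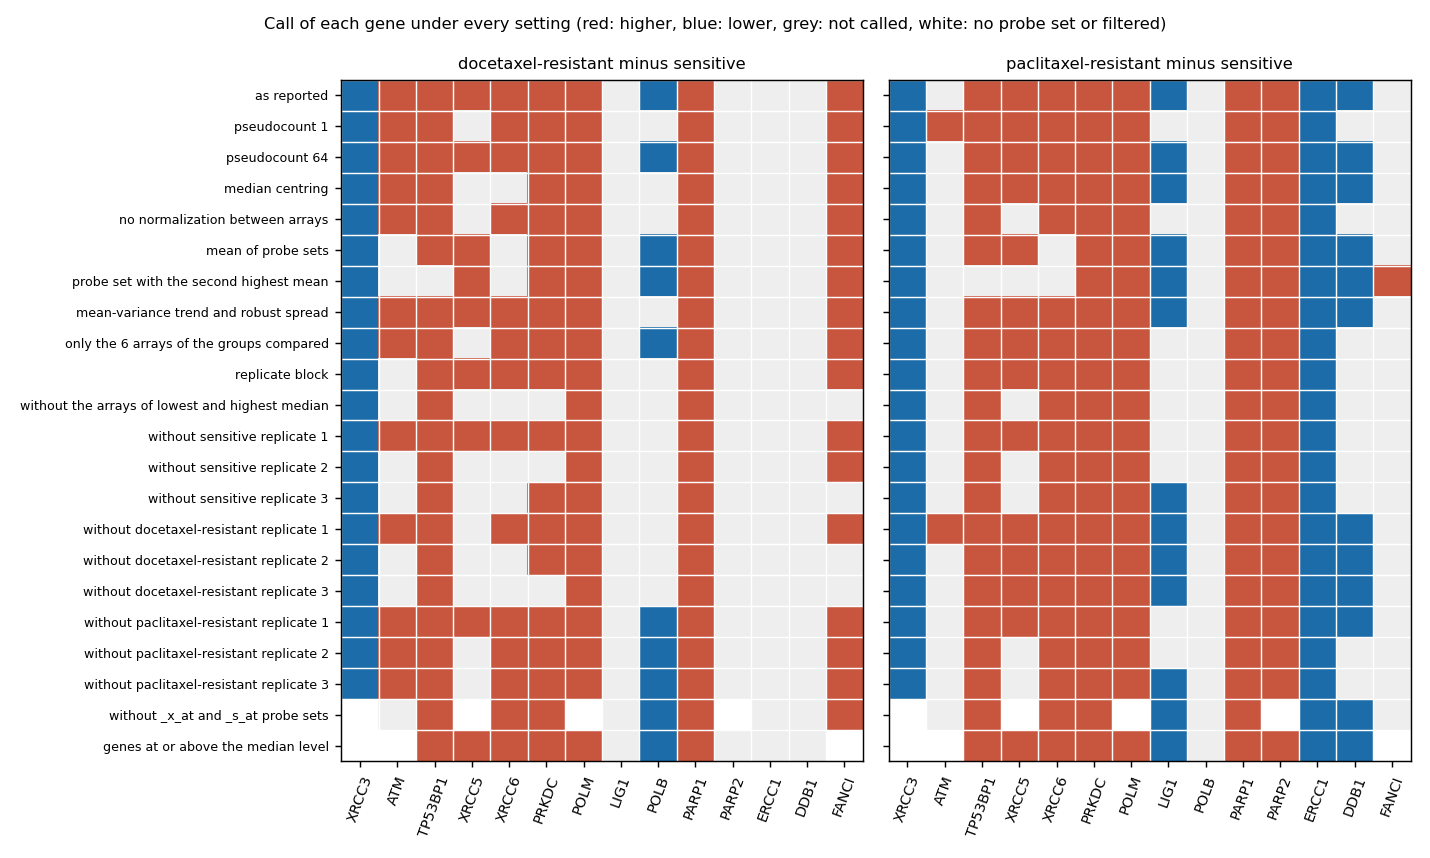
Call of each of the 14 genes (columns) under the reported setting and 21 alternatives (rows) in the docetaxel comparison (left) and the paclitaxel comparison (right); red marks higher, blue lower, grey not called and white no value. POLM and PARP1 stay red in both panels wherever they have a value, and the columns of XRCC5, ATM, POLB, LIG1 and DDB1 turn grey in many rows.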

How the data were processed

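RNA of 9 cultures was measured on Affymetrix arrays. The deposited values are a linear intensity per probe set. Per the submitters' processing notes they were made with Affymetrix Expression Console 1.1.2 and PLIER, which summarizes probes into a probe set. How the signal was corrected for background, normalized or called detected is not given in the sources used here. Arrays give no read depth, so their number and the signal over background limit the precision.

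Of 22283 probe sets, 68 were controls. In the platform annotation 19065 human probe sets had 1 gene symbol, 1043 had several and 2107 had none, and 19053 matched a RefSeq gene ID, from which symbols were updated. The probe set with the highest mean per gene was kept (11963 genes). The scale is log2(intensity + 16), on which array medians spanned 0.27. Since this exceeded the limit of 0.2, arrays were quantile-normalized. Limma 3.58.1 in R 4.3.3 fitted 3 group means (6 residual and 5.40 prior degrees of freedom, median SE 0.16). P-values are two-sided and adjusted by Benjamini-Hochberg over all genes per contrast. The procedure was tested on simulated data.

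Per-array values are given for genes called in at least 1 contrast without overlap of arrays, and always for BRCA1, ATM, PRKDC, PARP1, POLM, ERCC1 and XPC. Other repair genes are named up to 10 per contrast by size, among called genes without overlap. The genes and lists were chosen with earlier results of these data known. Alternatives changed the offset, normalization, probe set, filter, spread, samples or block. Probe sets named multi-transcript are those with the suffix _s_at or _x_at. Probes of the _x_at type may also match other sequences.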

Additional observations from a re-analysis of the deposited data

How the results depend on the processing

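The 16 repair genes with values per array were refitted under 21 alternatives, 12 of which left out no single array. Of 981 such refits over the 3 contrasts, 896 stayed on their side of the threshold without a called value changing sign, 76 lost a call, 7 gained one and 2 reversed a called value. Of the 896, 25 changed sign without being called. The 2 are ATM in the docetaxel line, at -0.09 (adjusted p = 0.835, limma) without multi-transcript probe sets and at -0.09 (adjusted p = 0.83, limma) with the second brightest probe set. The alternatives for end joining alone and for genes outside the 44 were added after seeing the data. Of those other genes, 23 were refitted 1410 times. Of these refits 1329 stayed on their side of the threshold (33 changed sign without being called), 71 lost a call, 6 gained one and 4 reversed a called value. All 4 are MBD4, at -0.20 (docetaxel) and -0.11 (paclitaxel), with each of those same probe set choices. The cause was not tested.

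Among the 44 genes, the docetaxel count of 10 became 6 of 31 measured without multi-transcript probe sets, where 17.1% of all genes were called. It became 5 without the dimmest and brightest array (by median), where 11.2% of all genes were. The paclitaxel count of 11 became 7 without multi-transcript probe sets, where 17.9% of all genes were called. PARP2, POLM, XRCC3 and XRCC5 have no value there and no other call was lost. In the docetaxel line POLM, XRCC3 and XRCC5 have no value there and ATM lost its call. Between the lines the count of 0 became 1 with an offset of 64, with the median-level filter and with averaged probe sets. Of all genes 3.28%, 5.25% and 2.02% were called in these refits. Leaving out 1 array gave 4 to 10, 8 to 12 and 0 to 1. The share of all genes called then was 13.7% to 21.7%, 15.8% to 22.6% and 0.652% to 2.36%. For end joining the docetaxel count of 4 became 2 with median centring or without multi-transcript probe sets. It became 1 without the dimmest and brightest array (by median). Of all genes 20.5%, 17.1% and 11.2% were called in these refits. For end joining both drops without multi-transcript probe sets are POLM and XRCC5, which have no value. The paclitaxel count of 4 became 2 without multi-transcript probe sets and 2 with the second brightest one. Of all genes 17.9% and 19.4% were called there. Leaving out 1 array gave 1 to 4, 3 to 4 and 0. For the other repair genes the docetaxel count of 18 became 11 with an offset of 1, 8 without normalization, 7 without multi-transcript probe sets, 11 with only the 6 arrays compared and 6 without the dimmest and brightest array (by median). In the same order 16.8%, 17.2%, 17.1%, 18.4% and 11.2% of all genes were called. The paclitaxel count of 15 became 7 without multi-transcript probe sets, where 17.9% of all genes were called. Leaving out 1 array gave 9 to 20, 11 to 19 and 0.

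Replicate numbers recur in each group. The deviations of same-numbered arrays correlated between -0.45 and 0.34, without a common sign, and the main fit did not pair the samples by number. Shared handling of same-numbered arrays was not tested. With the replicate number as a block, 8, 9 and 0 of the 44 genes were called, where 19.2%, 20% and 1.16% of all genes were.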
